A study of Mus musculus with 9 samples.

Results

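The genes described here encode the structural proteins of the vascular basement membrane, the thin sheet of matrix on which endothelial cells sit and which they share with the mural cells (pericytes and smooth muscle cells) around them. Its main parts are a network of collagen IV (Col4a1, Col4a2), a network of laminins, each built of an alpha, a beta and a gamma chain (Lama4, Lama5, Lamb1, Lamb2, Lamc1), the nidogens that link both networks (Nid1, Nid2) and the heparan sulfate proteoglycan perlecan (Hspg2). In the brain this sheet is part of the blood-brain barrier and is known to be built and broken down again when vessels sprout. These 10 genes were chosen by their symbols, not by their values, out of 32674 genes that were listed in at least 1 of the 9 files. Each of the 10 was listed in all 9, so that a value of 0 below is a measured 0.

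The data were Drop-seq counts of mouse cells from the tumor microenvironment (TME) of glioblastoma (GBM) patient-derived orthotopic xenografts (PDOXs), which are human tumors grown in the brain of nude mice from patient-derived organoids. The 7 untreated PDOXs were P8, T101, T192 and T233, which the study describes as more invasive, and P3, T16 and P13, which it describes as having stronger angiogenic features (P3 is also called intermediate in growth). A further P3 PDOX came from a mouse treated with temozolomide (TMZ), the alkylating drug used against GBM, and 1 brain came from a nude mouse without tumor (Nu-NB). All mice were athymic nude mice, which lack mature T cells. Organoids were placed in the right frontal cortex of females. In the TMZ experiment of the study, treated P3 mice received TMZ by oral gavage and control P3 mice received the vehicle (NaCl with DMSO). The label of the P3 sample says only that it was untreated. T192 and T233 were derived from the same patient. Each PDOX model is 1 untreated sample, so the p-values of the growth comparisons measure the spread between models, and P3 TMZ came from another mouse than untreated P3. Those of endothelial-like against mural-like cells, with the PDOX as a block, measure how that difference varies between models. Against Nu-NB, the 1 brain was taken to vary like the PDOXs. FACS was used to isolate the mouse cells of Nu-NB and of P8, and magnetic (MACS) depletion was used for all other samples. Both FACS-sorted samples were also deposited with gene symbols of an older release, so that sort and symbol release cannot be told apart.

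In total, 14618 cells were kept, 12122 of them from the untreated PDOXs. The files held between 1294068 and 8410580 unique molecular identifiers (UMIs), with the most in P13, and 8 barcodes occurred in more than 1 library. Cells were clustered without the 10 genes and without the related gene lists used below. Clusters were named from marker genes, and a class is called "-like" because no annotation by the authors was used. Cells of clusters that met no class (unnamed, 1656 cells) or no single class (mixed, 871 cells) stay among the kept cells. Unnamed cells were 685 of 1498 kept cells in T101 and 184 of 777 in P3, but 24 of 2324 in P8. In the endothelial-like sums of the untreated PDOXs, all 12 endothelial markers were detected and added up to between 13304 and 23095 CPM (UMIs of a gene over all UMIs of the class in that sample, on the usual counts-per-million scale, the unit of level used throughout), against 183 to 933 CPM in mural-like sums. The endothelial-like sums held 120 to 561 cells and 89890 to 1406089 UMIs per untreated PDOX. Intervals in brackets are 95% intervals, and intervals and floors cover counting error only.

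The collagen IV genes lie head to head on chromosome 8 of the mouse genome (GRCm38). Col4a1 occupies chr8:11198423-11312826 on the minus strand and Col4a2 occupies chr8:11312805-11449287 on the plus strand, so that the annotated 5′ ends share 22 bases at chr8:11312805-11312826. This stretch is shown because it is the one piece of sequence that both genes hold in common at their start. It is written on the plus strand and a GC box (GGGCGG) is in capitals.

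Col4a1 and Col4a2, shared first bases: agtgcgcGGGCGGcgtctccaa

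Drop-seq reads start from the 3′ end of a transcript, far from this overlap. The other genes lie apart from each other, with Lamb1 on chromosome 12 (chr12:31265234-31329644), Nid1 on chromosome 13 (chr13:13437551-13512269) and Lamb2 on chromosome 9 (chr9:108479736-108490530), all on the plus strand. For these 3 genes the part of the RefSeq promoter window (GRCm38.p6) that lies before the gene is printed, because Lamb1 and Nid1 carry the growth differences given below and Lamb2 was the one tested gene of the 10 whose difference had the opposite sign. Capitals mark GC boxes (GGGCGG, or CCGCCC on the other strand) and CCAAT boxes (CCAAT, or ATTGG).

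Lamb1, chr12:31265043-31265233: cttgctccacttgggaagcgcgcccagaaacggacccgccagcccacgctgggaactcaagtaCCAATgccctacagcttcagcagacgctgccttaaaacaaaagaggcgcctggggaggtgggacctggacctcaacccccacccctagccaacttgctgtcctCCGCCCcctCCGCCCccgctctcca

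Nid1, chr13:13437352-13437550: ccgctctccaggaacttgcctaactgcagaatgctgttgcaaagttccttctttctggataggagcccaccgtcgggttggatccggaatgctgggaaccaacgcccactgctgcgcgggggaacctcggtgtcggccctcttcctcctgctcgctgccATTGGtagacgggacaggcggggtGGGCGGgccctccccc

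Lamb2, chr9:108479612-108479735: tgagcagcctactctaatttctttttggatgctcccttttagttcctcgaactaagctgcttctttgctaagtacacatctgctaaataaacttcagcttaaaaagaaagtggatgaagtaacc

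The Lamb1 stretch held 2 GC boxes and 1 CCAAT box, the Nid1 stretch held 1 of each, and the Lamb2 stretch held none of them. In the whole window of 300 bases, 6 of the 7 genes with an entry held a GC box, 4 held a CCAAT box and none held a TATA box (TATAAA, or TTTATA on the other strand). Among all 32851 promoters of the table, 35.7% held a GC box, 37.4% a CCAAT box and 13.6% a TATA box. Lama4, Lamc1 and Nid2 had no entry. These matches are a description of letters only.

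Endothelial-like cells held a larger share of the UMIs of the 10 genes than of the kept cells in 7 of 7 untreated PDOXs. In these PDOXs a median of 48.5% of their UMIs was in endothelial-like cells (range 22.1% to 74.7%), although these cells made up a median of 16.9% of the kept cells. Mural-like cells held a median of 11.5% of the UMIs (range 1.24% to 35.0%) and were a median of 3.09% of the cells. Fibroblast-like cells held a median of 0.666%, with the highest share in P8 (15.1%). Endothelial-like cells held the largest share of any class in 5 of the 7 PDOXs. The exceptions were P8, where mural-like cells held 26.5% against 22.1%, and T233, where myeloid-like cells held 36.0% of only 161 UMIs against 32.9% in endothelial-like cells. In Nu-NB, where endothelial-like cells were 2.03% of the cells, endothelial-like and mural-like cells held 10.1% each of 227 UMIs, fibroblast-like cells 13.2% and astrocyte-like cells 23.8%.

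**Figure D1:**
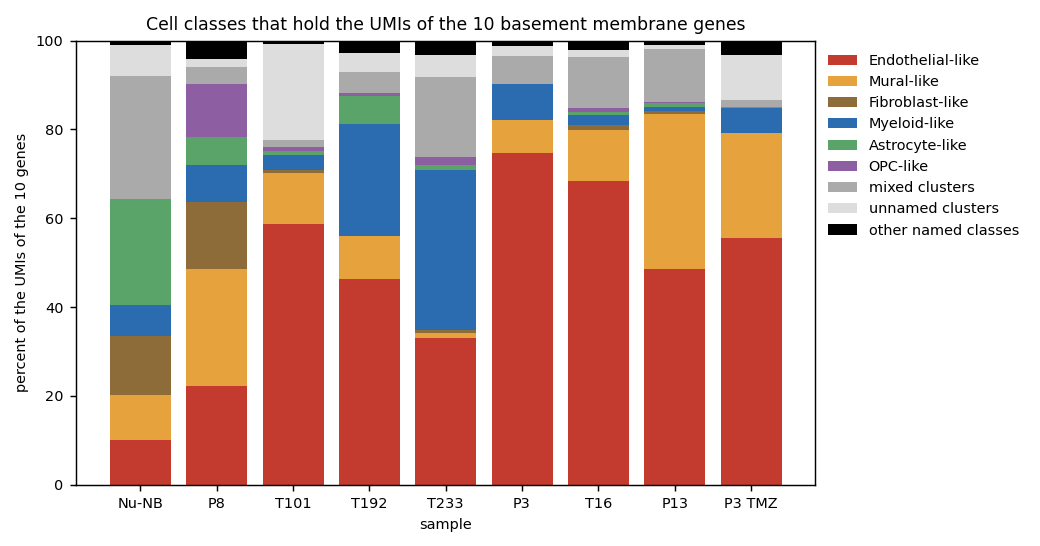
Stacked bars give, for each sample, the percent of the summed UMIs of the 10 basement membrane genes that lay in each cell class (all bars add to 100). Endothelial-like cells (red) hold between 22.1% and 74.7% in the untreated PDOXs, and mural-like cells (orange) hold 35.0% in P13.

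The class with the highest median level differed between the genes. Col4a1 had a median of 1203 CPM over the 7 PDOXs in mural-like cells (range 0 to 1914), 719 CPM in endothelial-like cells (189 to 1100) and 317 CPM in the fibroblast-like cells of the 3 PDOXs with at least 10 such cells (156 to 811). The ranges of these 3 classes overlapped. By median, oligodendrocyte progenitor (OPC)-like cells came next among the classes with at least 10 cells in 3 or more PDOXs. Col4a1 reached no more than 85.3 CPM there, below the range of the fibroblast-like cells. Cycling cells reached 100 CPM (T16). Neuronal-like cells were not ranked, since only T16 and P13 held enough of them, at 54.8 and 87.8 CPM. Col4a2 had the same first 3 classes, with medians of 1122, 535 and 333 CPM. Lama4, a laminin alpha chain of vessels, had medians of 496 CPM in mural-like and 293 CPM in endothelial-like cells. It was at most 58.7 CPM in OPC-like cells, below all 7 endothelial-like values. Cycling cells reached into the endothelial-like range (66.7 to 722 CPM), at 80.0 CPM in P3 and 75.0 CPM in T16 on 3 UMIs each. The fibroblast-like values of 0 to 416 CPM overlapped both vessel classes. Lamc1, the common gamma chain, and Nid1 were also highest in mural-like cells, with medians of 223 and 284 CPM, but their mural-like, fibroblast-like and endothelial-like ranges overlapped.

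For Lamb1, a laminin beta chain, the order of the classes differed between PDOXs. Its median was 365 CPM in fibroblast-like cells (356 to 520), 321 CPM in mural-like cells (0 to 392), 135 CPM in choroid plexus-like cells (56.4 to 162) and 47.3 CPM in endothelial-like cells (11.1 to 426), but the fibroblast-like and choroid plexus-like medians cover only P8, T16 and P13. In P8 the order was fibroblast-like (520 CPM), mural-like (321), choroid plexus-like (162) and endothelial-like cells (43.1). In T16 it was mural-like (392), fibroblast-like (365), endothelial-like (264) and choroid plexus-like cells (135). In P13 endothelial-like cells came first (426), ahead of fibroblast-like (356), mural-like (354) and choroid plexus-like cells (56.4). The fibroblast-like range did not overlap that of the choroid plexus-like cells, whereas the endothelial-like range spanned all of the latter. Nid2 had medians of 59.3 CPM in fibroblast-like and 22.6 CPM in choroid plexus-like cells of these 3 PDOXs and of 43.1 CPM in the endothelial-like cells of all 7, with overlapping fibroblast-like and endothelial-like ranges. It was at 0 UMIs in the mural-like cells of 5 of the 7 PDOXs, where 0 allows up to 37.0 CPM in P8 and 167 to 548 CPM in T192, P3, T101 and T233.

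Lama5 and Hspg2 had their highest median in endothelial-like cells, but a count of 0 allows 59.3 to 156 CPM in the fibroblast-like sums of P13, P8 and T16, so that fibroblast-like cells, all at 0 there, cannot be ranked below. Lama5, the other laminin alpha chain of vessels studied here, had a median of 24.0 CPM in endothelial-like cells (11.1 to 60.8) and at most 3.66 CPM in myeloid-like cells, below that range. The astrocyte-like and cycling cells (up to 13.4 and 13.6 CPM) reached into it. The mural-like range (0 to 55.7 CPM) overlapped it too, with 15 UMIs in P13 (16.1 CPM), 1 each in P8 and T192 and none in the other 4 PDOXs. Hspg2 had a median of 40.1 CPM (0 to 81.5), against at most 7.31 CPM in myeloid-like cells, and the ranges overlapped through T233, which held no UMI of Hspg2 in endothelial-like cells. The mural-like range of Hspg2 (0 to 75.2 CPM) overlapped the endothelial-like range as well. In the mural-like sums of T192, P3, T101 and T233 the floor was 167 to 548 CPM. Mural-like cells can thus not be ranked below for Lama5 or Hspg2 either. Lamb2 had similar levels in the vessel classes, with medians of 44.1 CPM in mural-like, 39.6 CPM in fibroblast-like and 34.5 CPM in endothelial-like cells, and overlapping ranges.

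**Figure D2:**
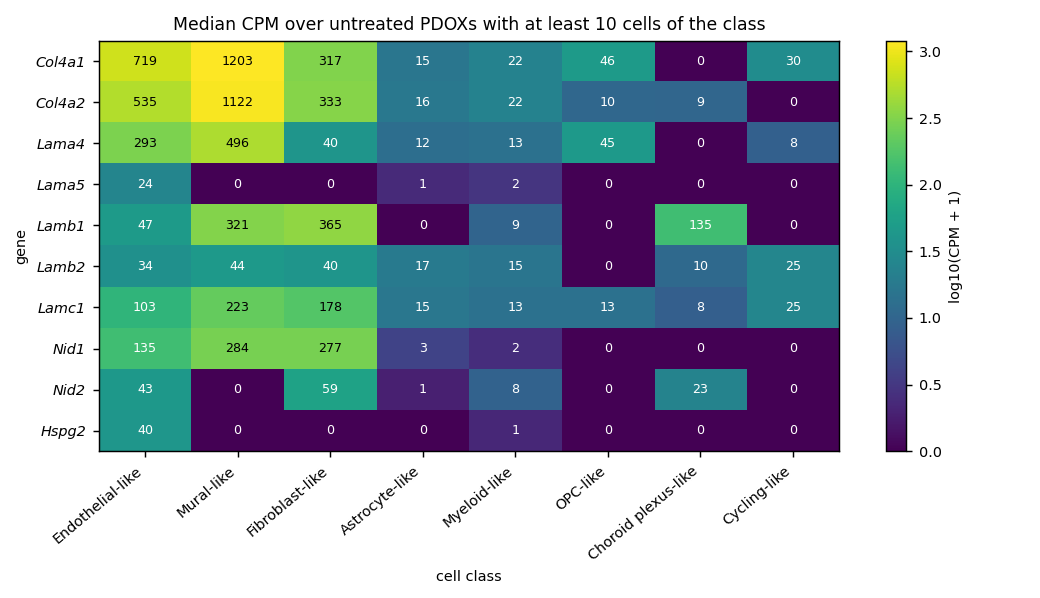
Each cell gives the median level in CPM (number) of a gene (row) in a cell class (column) over the untreated PDOXs with at least 10 cells of the class, colored by log10(CPM + 1). Values are to be read along a row, since levels of different genes were not set per length: Col4a1 is highest in mural-like cells (1203), Lamb1 in fibroblast-like cells (365, over 3 PDOXs only) and Hspg2 in endothelial-like cells (40).

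Free RNA in the droplets can give UMIs to cells that do not express a gene, so myeloid-like cells were taken as a background. The median there was 22.1 CPM for Col4a1 and for Col4a2, between 8.43 and 14.6 CPM for Lama4, Lamb1, Lamb2, Lamc1 and Nid2, and at most 1.96 CPM for Lama5, Nid1 and Hspg2. Endothelial-like cells lay above the myeloid-like cells of the same PDOX in 7 of 7 PDOXs for 8 genes and in 6 of 7 for Nid2 and Hspg2.

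Across the 63 sums of a class in a sample with at least 10 cells, the 5 genes of 10081 whose log2(CPM + 10) correlated most with Col4a1 were Lama4 (r = 0.90), Col4a2 (0.89), the transcription factor gene Foxc1 (0.88), Nid1 (0.87) and Itga1 (0.86), which encodes a collagen-binding integrin chain. Lamc1 followed with 0.83 and Lamb1 with 0.71, whereas Nid2 reached 0.21. The sums share libraries and differ in depth, so these values are a description.

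Whether vessel cells differ in these genes within one tumor was addressed by comparing endothelial-like with mural-like sums of the same PDOX, with the PDOX as a block. Col4a1, Col4a2 and Nid1 were lower in endothelial-like cells. Col4a1 in mural-like cells was 765 CPM in P8, 1203 in T101, 613 in T192, 0 in T233, 1914 in P3, 1325 in T16 and 1631 in P13, against 543, 730, 312, 189, 757, 719 and 1100 CPM in the endothelial-like cells of the same PDOXs. Mural-like cells thus had more in every PDOX but T233, whose mural-like sum held 14 cells and 5471 UMIs. The difference, endothelial-like minus mural-like, was -0.78 on the log2 scale (SE 0.23, edgeR FDR 0.0112). Col4a2 was higher in the mural-like cells of 7 of 7 PDOXs, at 366 to 1937 CPM against 133 to 1553 CPM, with a log2 difference of -0.75 (SE 0.22, edgeR FDR 0.00883). Nid1 was higher in 6 of 7, with a log2 difference of -0.76 (SE 0.27, edgeR FDR 0.0393).

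The laminin chains that could be tested did not pass. The log2 difference was -0.55 for Lama4, -0.86 for Lamb1 and -0.46 for Lamc1, with edgeR FDRs of 0.225, 0.109 and 0.362, and each was higher in the mural-like cells of 4 of 7 PDOXs. Lama5, Lamb2, Nid2 and Hspg2 had too few UMIs for this test. Of 1994 genes tested, 26.1% passed at FDR ≤ 0.05, 16.2% higher and 9.88% lower in endothelial-like cells, beside which the 3 of 6 tested basement membrane genes stand. These calls rested on the libraries used: without T16 none of the 3 passed (FDR 0.0530, 0.0590 and 0.107 for Col4a1, Col4a2 and Nid1), and without P13 Lama4 and Lamb1 passed as well (FDR 0.0144 and 0.00765).

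Of the related lists, Serpinh1 and P4ha1, which encode a collagen chaperone and a collagen prolyl hydroxylase subunit, were the 2 of 5 tested collagen modification genes past the threshold, both lower in endothelial-like cells (log2 difference -0.80 and -1.44). Among 3 tested receptor genes, the integrin chain gene Itga6 was higher in endothelial-like cells (1.90), and Itga1 and Itgb1 were lower (-1.46 and -0.79). Sparc, a collagen-binding matrix protein gene, was higher (0.91) and Timp3, an inhibitor of matrix proteases, was lower (-0.74).

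In endothelial-like cells, Lamb1 and Nid1 rose in angiogenic against invasive PDOXs. Lamb1 was at 43.1 CPM in P8, 47.3 in T101, 22.6 in T192 and 11.1 in T233, resting on 1 to 7 UMIs each, and at 259 CPM in P3, 264 in T16 and 426 in P13, on 54, 178 and 599 UMIs. All 3 angiogenic PDOXs lay above all 4 invasive ones, with means of 316 ± 94.9 CPM (SD) against 31.0 ± 17.1 CPM. The log2 fold change (log2FC) was 3.14 (SE 0.36, edgeR FDR 0.00150). Nid1 was at 77.5 CPM in P8, 135 in T101, 63.3 in T192 and 33.4 in T233, and at 374 in P3, 187 in T16 and 294 in P13, also without overlap. Its log2FC was 1.74 (SE 0.36, edgeR FDR 0.0351).

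Of the 10 genes, 9 passed the filter on low counts, which a gene can pass through its high group alone, and these 2 were past the threshold among 1.40% of all 4154 genes tested (0.578% higher and 0.818% lower in angiogenic PDOXs). Without the filter 7 of the 10 passed, beside 2.62% of 12667 genes. Lamb1 stayed past the threshold without any one PDOX, with FDRs of 0.00395 to 0.00899. Nid1 did so only without T101 (FDR 0.0401). It was at FDR 0.0531 without P8, 0.0738 without T192, 0.0649 without T233, 0.119 without P3, 0.116 without T16 and 0.0671 without P13. With T192 and T233, which share a patient, summed into 1 sample, Nid1 was at FDR 0.0740 (log2FC 1.66) and Lamb1 at 0.0107 (log2FC 3.10). Without P8 all PDOXs compared had been sorted by magnetic depletion, and Lamb1 then had a log2FC of 3.27 (FDR 0.00535).

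The other laminin chains gave a mixed picture. Lama4 was at 293, 237, 127 and 66.7 CPM in P8, T101, T192 and T233, and at 307, 391 and 722 CPM in P3, T16 and P13, so that the groups did not overlap but came close in P8 and P3. Its log2FC was 1.35 (SE 0.39, edgeR FDR 0.0869), which missed the threshold. Lamc1 was at 129, 47.3, 49.7 and 55.6 CPM against 163, 103 and 300 CPM, with P8 among the angiogenic values (log2FC 1.40, SE 0.40, edgeR FDR 0.0898).

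Lamb2, the beta chain that can take the place of Lamb1, had the opposite sign. It was at 34.5 CPM in P8, 87.8 in T101, 81.4 in T192 and 89.0 in T233, and at 28.8, 23.8 and 30.6 CPM in P3, T16 and P13. The invasive values lay above the angiogenic ones, in P8 by a few CPM and on 4 UMIs, and the log2FC of -1.31 (SE 0.36, edgeR FDR 0.0806) did not pass the threshold. Without P8 it did (log2FC -1.54, FDR 0.0411). Lama5 was at 43.1, 60.8, 45.2 and 11.1 CPM against 24.0, 22.3 and 20.6 CPM, overlapped through T233, and had too few UMIs for the test.

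Collagen IV was above the invasive range in 2 of the 3 angiogenic PDOXs, with T16 inside it, and did not pass the test. Col4a1 was at 757, 719 and 1100 CPM in P3, T16 and P13, and T101 reached 730 CPM among the invasive PDOXs, with means of 859 ± 210 and 443 ± 241 CPM (SD). The log2FC was 0.91 (SE 0.36, edgeR FDR 0.235). Col4a2 was at 1093, 535 and 1553 CPM against 457, 845, 307 and 133 CPM, with T101 above T16 (log2FC 1.23, SE 0.46, edgeR FDR 0.201). Hspg2 was at 81.5, 40.1 and 51.9 CPM against 25.8, 54.1, 18.1 and 0 CPM (log2FC 0.92, SE 0.50, edgeR FDR 0.419). Nid2 was at 76.7, 50.5 and 158 CPM against 43.1, 27.0, 22.6 and 0 CPM without overlap (log2FC 1.81, SE 0.50, edgeR FDR 0.0806), and passed by DESeq2 (FDR 0.0460), which called 3.59% of all genes tested.

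**Figure D3:**
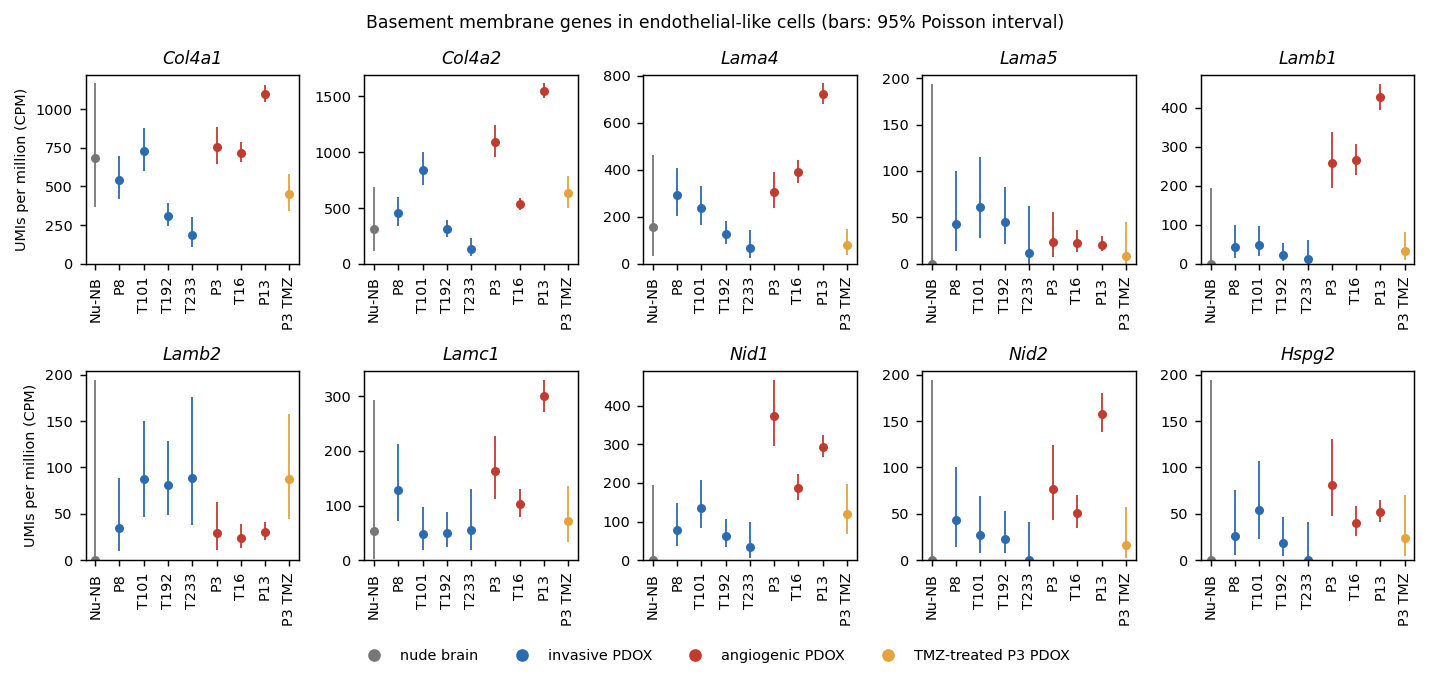
Points give the level in CPM of each gene in the summed endothelial-like cells of each sample, with exact 95% Poisson intervals as bars. Lamb1 and Nid1 are higher in each angiogenic PDOX (red, 259 to 426 and 187 to 374 CPM) than in each invasive PDOX (blue, 11.1 to 47.3 and 33.4 to 135 CPM), and Lamb2 is lower.

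Of the genes tested, 4 did not overlap with angiogenic PDOXs higher (Lama4, Lamb1, Nid1 and Nid2) and 1 with angiogenic PDOXs lower (Lamb2), where 7.34% and 6.04% of all genes tested did so. Serpinh1, the collagen chaperone, was the only gene past the threshold in the 5 related lists, at a mean of 404 against 104 CPM (log2FC 1.88, SE 0.30, edgeR FDR 0.0213), among 7 tested collagen modification genes. None of the 3 other basement membrane components tested passed, with log2FCs of 0.93 for Sparc, 0.31 for Agrn (agrin) and 1.68 for Col18a1 (collagen XVIII). The 4 receptor genes did not pass (Itgb1 0.55, Itga1 -0.45 and Itga6 -0.50), nor did the 3 genes of matrix degradation and its inhibitors (Adamts1 0.47, Timp3 -0.46 and Adamts9 1.06), or Apln (1.59) and Angpt2 (1.0), which are known from sprouting endothelium.

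Other measures moved with this comparison. The endothelial marker sum was 13304 to 16802 CPM in the angiogenic and 19410 to 23095 CPM in the invasive PDOXs, without overlap. The sum of the 11 mural markers in the same endothelial-like cells was 731 to 1967 CPM in the angiogenic and 345 to 1375 CPM in the invasive PDOXs, with 10 to 11 and 6 to 11 of the markers detected, against 14769 to 29211 CPM in mural-like sums. Their part in the result was not tested.

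The makeup of the endothelial-like class moved with growth as well. It held a cluster of 1495 cells led by Gkn3, Cxcl12 and Ly6c1 and a cluster of 745 cells led by Ctla2a, with Kdr, Cd93 and Apln among its leading genes. The Ctla2a-led cluster made up 16.3%, 15.8%, 9.54% and 5.0% of the endothelial-like cells of P8, T101, T192 and T233, and 73.1%, 47.4% and 34.0% of those of P3, T16 and P13. In Nu-NB it was 1 of 36 cells. The genes that define these clusters differ between the groups, so these shares are given only as values beside the result, and the split was chosen after seeing the data.

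Within a PDOX, the Ctla2a-led cells had higher levels of most of the basement membrane genes. In the 6 PDOXs with at least 10 cells of either cluster, Col4a1, Col4a2, Lama4, Lamb1, Lamc1, Nid1 and Hspg2 were higher in the Ctla2a-led cluster in 6 of 6, and Nid2 in 5 of 6. The median was 259 CPM against 10.8 CPM for Lamb1, 276 against 60.6 CPM for Nid1, 997 against 350 CPM for Col4a1 and 499 against 102 CPM for Lama4. Lamb2 and Lama5 were higher in the Ctla2a-led cluster in only 1 of 6, with medians of 20.3 against 57.1 CPM and 27.4 against 42.3 CPM. The 10 genes took no part in the clustering, but these cells were clustered, so the values are a description without a test. How many of all genes were higher in 6 of 6 was not counted, so whether this is particular to these genes cannot be said. The clusters also differed in depth, with a median of 1180 UMIs per Ctla2a-led cell and 633 per Gkn3-led cell.

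**Figure D4:**
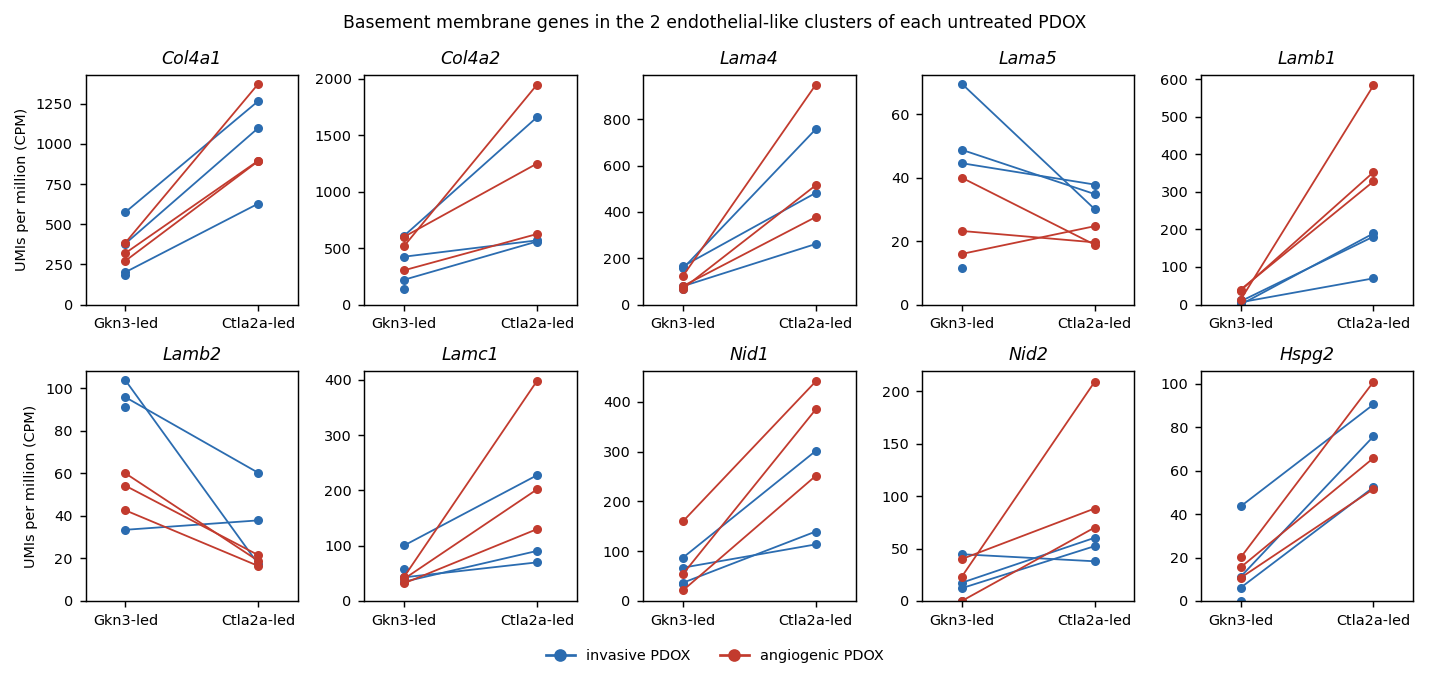
Each line joins the level in CPM of a gene in the Gkn3-led (left) and the Ctla2a-led (right) endothelial-like cluster of one untreated PDOX, for the clusters with at least 10 cells (T233 has the Gkn3-led point only). The right-hand point of Lamb1 is the higher one in 6 of 6 PDOXs (medians of 10.8 and 259 CPM), and that of Lamb2 in 1 of 6.

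Within either cluster, 0 of the 10 genes passed the growth comparison by edgeR (6 were tested in the Ctla2a-led and 4 in the Gkn3-led cluster). Of all genes tested, 0.222% of 2256 passed in the Ctla2a-led and 0% of 2503 in the Gkn3-led cluster, so that these fits called few genes of any kind. At an unadjusted p under 0.05 the counts were 2 of the 6 and 0 of the 4, and DESeq2 was not run within the clusters. In the Ctla2a-led cluster alone, Lamb1 was at 189 CPM in P8, 181 in T101 and 69.8 in T192, and at 328 in P3, 352 in T16 and 583 in P13. These groups did not overlap, but the invasive values rested on 4 to 6 UMIs, and the log2FC of 1.63 had an edgeR FDR of 0.309. Nid1 was at 114, 301 and 140 CPM against 441, 251 and 385 CPM, with T101 above T16 (log2FC 0.96, edgeR FDR 0.581). In the Gkn3-led cluster the log2FC was -0.02 for Col4a1 and -0.23 for Lama4, and Lamb1 had too few UMIs to be tested, at 0 to 11.4 CPM in invasive and 12.9 to 40.02 CPM in angiogenic PDOXs. With the share of Ctla2a-led cells as a term of the fit, the log2FC of Lamb1 was 3.54 (edgeR FDR 0.0999) and that of Nid1 was 1.07 (edgeR FDR 0.829). This fit called 0% of 4154 genes and 0 of the 9 tested here, 4 of which had an unadjusted p under 0.05. Nid1 was not fitted in the Gkn3-led cluster, where it was at 34.2 to 87.1 CPM in invasive and 21.3 to 160 CPM in angiogenic PDOXs, with overlapping groups and medians of 51.8 and 54.2 CPM.

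**Figure D5:**
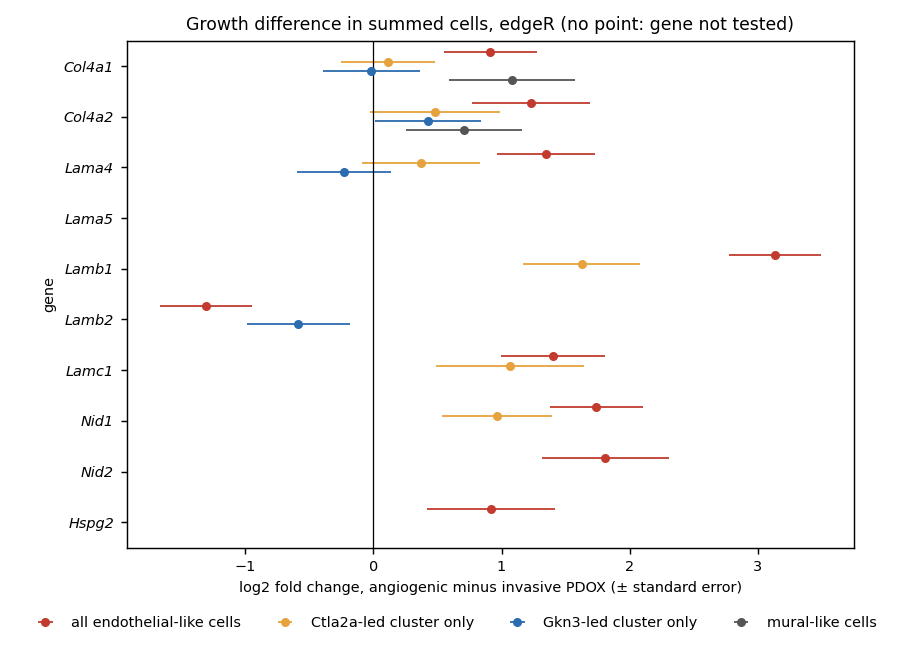
Points give the log2 fold change, angiogenic minus invasive PDOX, with its standard error, for each gene in all endothelial-like cells (red), the Ctla2a-led cluster (orange), the Gkn3-led cluster (blue) and mural-like cells (gray), as fitted by edgeR. Lamb1 lies at 3.14 in all endothelial-like cells and at 1.63 in the Ctla2a-led cluster, and Lamb2 lies at -1.31.

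In mural-like cells, collagen IV had a difference of similar size that did not pass. Col4a1 was at 765, 1203, 613 and 0 CPM in P8, T101, T192 and T233 and at 1914, 1325 and 1631 CPM in P3, T16 and P13, without overlap (log2FC 1.08, SE 0.49, edgeR FDR 0.221). Col4a2 overlapped through T101 at 1880 CPM (log2FC 0.71, SE 0.45, edgeR FDR 0.394). The mural-like sums were small, so that only 216 genes could be tested, of which 0.926% passed, and 2 of the 10 basement membrane genes. Of these 2, 0 passed by edgeR or by DESeq2 (which called 4.63% of the genes), and 1 had an unadjusted p under 0.05. The groups did not overlap for 1 of the 2 (Col4a1, angiogenic higher), where 6.94% of the genes tested did not overlap with angiogenic PDOXs higher and 8.80% with them lower.

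For the other genes the groups overlapped in mural-like cells, but sums at 0 UMIs took part in these overlaps and cannot be ranked. Lama4 was at 543, 902, 613 and 0 CPM against 496, 338 and 414 CPM, with 3 of the 4 invasive PDOXs above all angiogenic ones. Lamb1 was at 321, 150, 334 and 0 CPM against 142, 392 and 354 CPM. Nid1 was at 247, 376, 111 and 0 CPM against 425, 284 and 384 CPM. Lamb2 was at 98.7, 150, 111 and 0 CPM against 0 to 44.1 CPM, the same direction as in endothelial-like cells but for T233. The 0 in T233 allows up to 548 CPM.

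The test of the difference itself, chosen after seeing the data, compared the growth difference of endothelial-like with that of mural-like cells. It passed for Lamb1 (2.46 on the log2 scale, SE 0.60, edgeR FDR 0.00460) and Lama4 (1.63, SE 0.49, FDR 0.0373), both larger in endothelial-like cells, among 2.82% of 3222 genes tested. It did not pass for Lamc1 (1.37, FDR 0.315), Nid1 (0.72, FDR 0.775), Lamb2 (0.27), Col4a2 (0.15) or Col4a1 (-0.45).

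Summed over all kept cells, Col4a1 was at 61.6, 178, 28.3 and 18.3 CPM in P8, T101, T192 and T233 and at 282, 272 and 518 CPM in P3, T16 and P13. Lamb1 was at 23.2, 19.7, 4.72 and 4.88 CPM against 89.2, 111 and 163 CPM. Here a higher share of endothelial-like cells and a higher level per cell cannot be told apart, and endothelial-like cells were 6.07% to 16.9% of the cells in invasive and 18.7% to 28.7% in angiogenic PDOXs. The log2FC was 3.16 for Lamb1, 2.72 for Nid1, 2.46 for Col4a2, 2.31 for Col4a1, 2.2 for Hspg2 and 1.90 for Lama4, and that of Lamb2 was -0.35. The groups did not overlap for 6 of the 10, all higher in angiogenic PDOXs (Col4a1, Lama4, Lamb1, Nid1, Nid2 and Hspg2), where 5.22% of all genes tested did so and 2.01% in the other direction. By edgeR 0 of the 10 genes passed at FDR ≤ 0.05, as did 0% of all 12003 genes, although 8 of the 10 and 911 of all genes had an unadjusted p under 0.05. DESeq2 called 4 of the 10, namely Lamb1, Nid1, Nid2 and Hspg2, beside 0.916% of all genes tested.

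Against Nu-NB, the endothelial-like cells of the 7 untreated PDOXs gave no call. Nu-NB held 36 such cells with 18989 UMIs, among them 13 UMIs of Col4a1 (685 CPM, 365 to 1171), 6 of Col4a2 (316 CPM, 116 to 688), 3 of Lama4 and 1 of Lamc1. Lama5, Lamb1, Lamb2, Nid1, Nid2 and Hspg2 had 0 UMIs, which allows up to 158 CPM each, a floor above most PDOX values of these genes. The log2FC was 0.36 for Col4a1 (SE 0.78), 1.64 for Col4a2 (SE 1.18) and 1.45 for Lama4 (SE 1.25). The whole comparison was shifted upward, with a median log2FC of 0.59 over all genes tested and 66.4% of them above 0. The 0.36 of Col4a1 lay below this median, and its mean CPM was lower in the PDOXs (621) than in Nu-NB (685). At the study's thresholds (FDR ≤ 0.01 and |log2FC| ≥ 1), 0 of the 10 genes and 0% of all 5580 genes tested passed by edgeR, and 0 of the 10 by DESeq2. At an unadjusted p under 0.05 the counts by edgeR were 0 and 649. A difference from the normal brain was thus not detectable at this depth, with 1 brain that was sorted unlike 6 of the 7 PDOXs.

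After TMZ, the P3 PDOX had lower levels of most basement membrane genes in endothelial-like cells, in a comparison of 2 libraries without a test. How many of all genes were lower after TMZ was not counted, so whether the drop is particular to these genes cannot be said. Lamb1 was at 32.0 CPM (4 UMIs in 126 cells) after TMZ and at 259 CPM (54 UMIs in 223 cells) in untreated P3, a ratio of 0.124 (0.0325 to 0.335). The ratio was 0.321 (0.172 to 0.563) for Nid1, 0.261 (0.119 to 0.512) for Lama4, 0.592 (0.428 to 0.808) for Col4a1 and 0.579 (0.442 to 0.750) for Col4a2. The intervals of Hspg2 and Lama5 included 1. Lamb2 went the other way, at 88.0 CPM (11 UMIs) against 28.8 CPM (6 UMIs), a ratio of 3.06 (1.04 to 10.1).

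The share of Ctla2a-led cells also differed between these libraries, at 35.7% of the endothelial-like cells after TMZ and 73.1% in untreated P3. In the Ctla2a-led cluster the ratio was 0.165 (0.0434 to 0.449) for Lamb1, 0.368 (0.182 to 0.685) for Nid1 and 0.575 (0.391 to 0.828) for Col4a1. Lamb2 went the other way there too, with a ratio of 6.45 (1.61 to 37.0) on 9 UMIs after TMZ and 3 in untreated P3. In the Gkn3-led cluster it was 1.10 (0.529 to 2.31) for Col4a1 and 1.04 (0.614 to 1.78) for Col4a2, 0.733 (0.107 to 4.33) for Lama4 and 0.367 (0.0626 to 1.53) for Nid1, and Lamb1 had 0 UMIs after TMZ and 2 in untreated P3. These intervals are wide and included 1 for each of the 10 genes in the Gkn3-led cluster. In mural-like cells all 6 ratios that could be formed had intervals that included 1, such as 0.785 (0.440 to 1.40) for Col4a1. Whether these differences exceed those between mice of one model cannot be said from 1 sample each.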

How the data were processed

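The authors mapped the Drop-seq reads to the genome with STAR (bcl2fastq 2.0 and the builds GRCm38 and mm10 are in the submitters' processing notes) and deposited raw UMI counts per gene and cell barcode, with no normalization. All values were whole numbers. Older symbols were matched, after which 12957 genes were in every file.

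A cell entered if it had 200 or more genes and no more than 30% of its UMIs came from mitochondrial genes. Genes seen in fewer than 5 cells were dropped. Doublets were treated by taking out, per sample, the top 5% by scrublet score. Cells were clustered with scanpy 1.11.5 and leidenalg 0.10.2 (2000 variable genes, 30 components, 20 neighbors, resolution 1, no batch correction) into 22 clusters. A cluster was named where at least 3 and at least 50% of a class's markers marked it. This naming rule was revised with the clusters and their shares in view, and the basement membrane genes, the related lists and the comparisons were chosen with earlier results of these data known. All 10 genes are named in the text, and genes of the related lists past the threshold or, where none passed, up to 3 with the highest level.

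Counts of all cells of a class in a sample were added up if there were 10 cells or more. The test was edgeR 4.0.16 in R 4.3.3 (quasi-likelihood fit, TMM scaling), with Benjamini-Hochberg adjustment over all genes tested at FDR ≤ 0.05 (FDR ≤ 0.01 and |log2FC| ≥ 1 against Nu-NB). DESeq2 1.42.0 was an alternative. Scripts were tested on simulated data. CPM have exact Poisson intervals, shares exact binomial intervals. A floor is 3 UMIs. Other alternatives were another scaling, no low-count filter, other cell filters, naming of each cell from its own markers, summing T192 with T233, fits without the block and leaving out each PDOX.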

Additional observations from a re-analysis of the deposited data

Results flagged for a closer look

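The growth difference of Lamb1 was larger in endothelial-like than in mural-like cells by 2.46 on the log2 scale, and that of Lama4 by 1.63, both past the threshold of edgeR's interaction test (FDR 0.00460 and 0.0373). Mural-like values of the invasive PDOXs rested on 0 to 26 UMIs for Lamb1 and 0 to 44 for Lama4, with no UMI of either in T233.

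A single sample stood apart in 6 of 60 groups of 4 to 7 samples, where chance flags about 1 in 20. Among invasive PDOXs, P8 had the lowest Lamb2 in endothelial-like cells (34.5 CPM, next value 81.4) and the highest Lamc1 (129 CPM, next value 55.6). P8 was the only invasive PDOX sorted by FACS, and the part of the sort in these values was not tested. Lamb2 over all kept untreated cells was highest in T101 (41.8 CPM). Nid2 in mural-like cells was at 66.6 CPM in P13 (62 UMIs), but it was at 0 in 5 other PDOXs, and in 4 of them 0 allows 167 to 548 CPM, so that P13 cannot be ranked above those. The mural-like values of Lama5 in T192 (55.7 CPM) and of Hspg2 in T101 (75.2 CPM) were 1 UMI each and cannot be ranked either.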

How the results depend on the processing

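The count of basement membrane genes past the threshold between growth classes in endothelial-like cells (2) was 7 without the filter on low counts (beside 332 of 12667 genes), 1 without removal of doublets (6 of 4725), with at least 500 genes per cell (43 of 3485) and with T192 and T233 summed (3 of 4710), with Nid1 lost each time, and 1 to 2 when 1 PDOX was left out (from 1 of 4250 genes without P3 to 58 of 4049 without P8). It was 0 in the Gkn3-led cluster, where neither Lamb1 nor Nid1 could be tested and 0 of 2503 genes passed, so that this 0 says nothing of them, 0 in the Ctla2a-led cluster (beside 5 of 2256 genes) and 0 with the share of Ctla2a-led cells as a term (beside 0 of 4154), which were chosen after seeing the data. Lamb1 passed under 14 of 16 alternatives and Nid1 under 5 of 16. In the Gkn3-led cluster the sign turned for Col4a1 (-0.015) and Lama4 (-0.23), and the cause was not tested. Over all kept cells the count of 0 became 4 by DESeq2 (beside 110 of 12003 genes). In mural-like cells and against Nu-NB it was 0 under each alternative that could be fitted, which did not include at least 500 genes per cell against Nu-NB. With at least 500 genes per cell, only P8, T16 and P13 kept 10 mural-like cells, so that the mural-like comparison then had 1 invasive sample, assumed to vary like the others. For endothelial-like against mural-like cells the count (3) was 0 with no replicate block (beside 439 of 1994 genes), where the pairing is that both classes come from the same library. It was 1 without the filter on low counts (beside 2181 of 12869 genes, a gene higher in endothelial-like cells, where Col4a1, Col4a2 and Nid1 no longer passed), 1 with at least 500 genes per cell (3 PDOXs, 523 of 2613 genes), 5 with each cell named from its own markers (504 of 1859) and 0 to 5 when 1 PDOX was left out (436 of 2016 without T16 and 476 of 1649 without P13). With those 3 PDOXs the sign turned for Lama4 (0.069) and Lamc1 (0.25). Of 500 fold changes of single genes under alternatives, 451 kept direction and call, 4 reversed, 29 lost the call and 16 gained it. Scaling by DESeq2's factors moved the median of all genes from 0.11 to 0.01 in mural-like cells and from 0.59 to 0.49 against Nu-NB. Depth limited the Nu-NB sum, with 0 UMIs of 6 of the 10 genes, and the mural-like sum of T233, with 14 cells.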
